A study of Mus musculus with 12 samples.

Results

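The 35 genes described here encode the voltage-gated sodium channels, the voltage-gated calcium channels and the hyperpolarization-activated cation channels of the HCN family, and they were taken by symbol (Scn followed by a number and a or b, Cacna, Cacnb, and Hcn followed by a number) from 20989 loci with RNA sequencing values in mouse auditory cortex. They comprise 9 pore-forming sodium channel subunits (Nav alpha), 4 sodium channel beta subunits, 10 pore-forming calcium channel subunits (Cav alpha1), 4 alpha2delta and 4 intracellular beta subunits of calcium channels, and the 4 HCN genes. Acute coronal slices of 350 µm were cut from 6 C57bl6/J mice at 4 weeks of age and divided along the midline. Of each mouse, 1 hemisphere was kept for 1 h in artificial cerebrospinal fluid (aCSF, control) and the other for 1 h in cocktail aCSF. The study's methods add 1 h more of rest in plain aCSF for either hemisphere, after which the auditory cortex was dissected, giving 6 control and 6 cocktail libraries. The cocktail held 50 µM bicuculline methiodide, a blocker of GABA-A receptors, with 100 µM DL-norepinephrine hydrochloride, 50 µM carbamoylcholine chloride (an agonist of acetylcholine receptors), 100 µM dopamine hydrochloride, 100 µM serotonin hydrochloride and 40 µM ascorbic acid. Both groups had gone through slicing, recovery in choline chloride buffer and rest in aCSF, so neither is unoperated tissue. Levels are FPKM, fragments per kilobase of transcript and per size of the library, as deposited by the authors for each locus and library.

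Nav alpha subunits form the pore that carries the rising phase of the action potential, and their beta subunits adjust gating and anchor the channel in the membrane. Cav alpha1 subunits admit calcium upon depolarization. Those of the Cav1 class (L-type) couple activity to gene expression, those of the Cav2 class (P/Q-, N- and R-type) trigger transmitter release, and those of the Cav3 class (T-type) open at low voltages and favour burst firing. The alpha2delta and beta subunits bring calcium channels to the membrane. HCN channels open upon hyperpolarization and carry the Ih current, which sets the resting potential and the integration of synaptic input in cortical dendrites. The comparison asks whether 1 h of pharmacologically raised activity, with the rest that came after it, was followed by other transcript levels of these channels, and the control libraries give the levels without the cocktail.

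The libraries held 10600193 to 19768184 reads in the control group and 13539422 to 17506709 in the cocktail group, as recovered from the interval deposited beside each FPKM value. The control library of mouse 1 stood apart. Its locus levels followed the GC content of the transcripts, with a slope of 0.21 on the log2 scale for 10 percentage points of GC content over 12021 loci, whereas the other 11 libraries had slopes between -0.06 and 0.01. It had the lowest summed FPKM of the 12 libraries, 290155 against 306085 to 321759 in the others. Log2 fold changes are therefore given without mouse 1 as well for some of the genes, though not for all. Markers of cortical tissue were present in both groups, with 8 markers of excitatory neurons adding up to 1920.3 to 2205.3 FPKM in control and 1850.9 to 2240.6 FPKM in cocktail libraries. The 8 oligodendrocyte markers added up to 2200.2 to 2792.5 and 2496.0 to 2859.0 FPKM, the 8 astrocyte markers to 477.9 to 633.2 and 580.5 to 645.0 FPKM, and the 4 choroid plexus markers to at most 1.61 and 1.83 FPKM in control and cocktail libraries. No marker gene on these lists was called different between the groups. In such bulk samples, fewer cells of a type and less RNA per cell cannot be told apart.

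After 1 h in the cocktail and 1 h of rest in aCSF, none of the 25 channel genes with a mean of at least 1 FPKM was called changed. The test was limma on log2(FPKM + 1) with the mouse as a block, with Benjamini-Hochberg adjustment over all loci and a threshold of 0.05. It called 0 of 25 channel genes, where it called 180 of 12032 loci (1.50%), 147 of them higher and 33 lower. Only Cacna1i had an unadjusted p under 0.05 (1 of 25), against 968 of 12032 loci (8.05%). The smallest adjusted p among the channel genes in limma was 0.391. limma on log2 values under every alternative scaling, pseudocount, filter and model, and voom on the recovered reads, also called 0 channel genes. The control and cocktail values overlapped for all 25 genes (0 of 25 apart, against 0.914% of all loci tested), and no gene moved the same way in all 6 mice (0 of 25, against 6.30% of all loci tested).

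The intervals of these differences were narrow. On the log2(FPKM + 1) scale, the 95% interval from limma lay within a 1.2-fold change in either direction for 23 of 25 channel genes (92.0%), as it did for 84.4% of all loci tested. The exceptions were Scn4b, with an interval from -0.29 to 0.12 on the log2 scale, and Cacna1e, with an interval from -0.06 to 0.29. This scale understates changes of low genes, and other settings gave wider intervals for some genes. With a pseudocount of 0.1 the interval of Scn3a ran from -0.17 to 0.33, and in voom that of Cacnb4 ran from -0.13 to 0.33, both beyond 1.2-fold. Cacna1i lay barely within 1.2-fold (0.263 on the log2 scale) in the reported test, with an interval from -0.262 to -0.031. Its interval reached beyond 1.2-fold with a pseudocount of 0.1 (-0.273 to -0.032), with quantile normalization (-0.268 to -0.049) and in voom (-0.324 to -0.082). The log2 fold change was above 0 in 8 and below 0 in 17 of the 25 genes. Its median was -0.02, beside 0.01 over all loci tested, and the median of its absolute size was 0.04 for the channel genes and 0.05 for all loci tested.

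**Figure D1:**
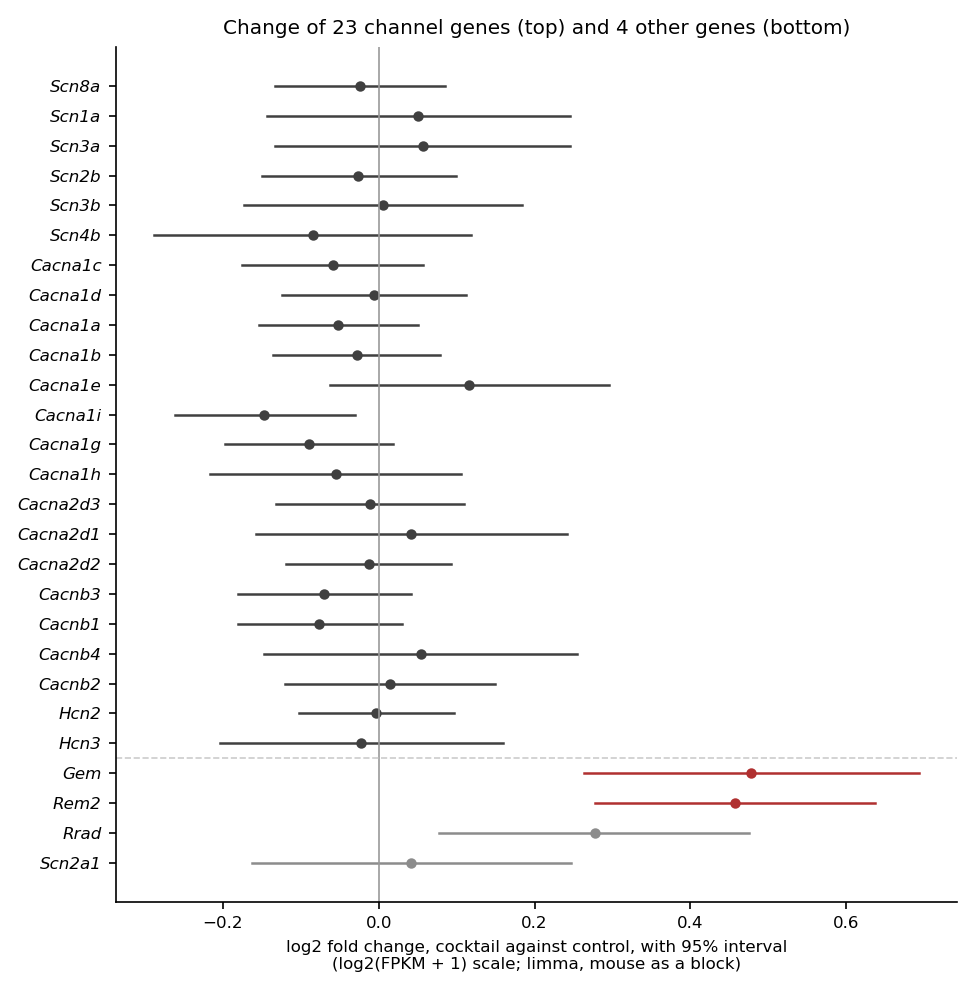
Log2 fold change of each gene, cocktail against control, on the log2(FPKM + 1) scale (x axis, point) with its 95% interval from limma (line), for 23 of the 25 channel genes grouped by role above the dashed line and 4 other genes below it. Red marks an adjusted p under 0.05. The channel genes lie between -0.15 and 0.12 and are drawn in black, whereas Gem (0.48) and Rem2 (0.46) are drawn in red.

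Among the Nav alpha genes, Scn8a had the highest level. Its encoded channel sits at the axon initial segment and the nodes of Ranvier, where action potentials start and are passed on. Scn8a ranged from 41.3 to 53.3 FPKM in control (median 48.9) and from 44.3 to 51.6 FPKM in cocktail libraries (median 47.0). The cocktail values lay inside the control range, and the log2 fold change was -0.02 (95% interval -0.13 to 0.09, limma adjusted p = 0.945). The lower end of that range was the control library of mouse 1, with the next lowest control value at 46.2 FPKM. Without mouse 1 the log2 fold change of Scn8a was -0.05. Scn1a, whose channel is known for its role in fast-spiking inhibitory neurons and whose loss causes epilepsy, ranged from 8.88 to 19.9 FPKM in control (median 16.8) and from 13.5 to 19.3 FPKM in cocktail libraries (median 16.4). The lowest Scn1a value was the control library of mouse 1 and the next lowest control value was 14.1 FPKM, so the groups overlapped. The log2 fold change of Scn1a was 0.05 (95% interval -0.14 to 0.25, limma adjusted p = 0.935), and it was -0.06 (-0.17 to 0.06) without mouse 1. Scn3a, the form that predominates in the embryonic brain, had 3.45 ± 0.77 FPKM in control and 3.57 ± 0.32 FPKM in cocktail libraries (SD, n = 6 each). Its log2 fold change was 0.06 (95% interval -0.13 to 0.25, limma adjusted p = 0.923), and it was -0.04 (-0.18 to 0.10) without mouse 1.

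The files list Scn2a under its older symbol Scn2a1, which the symbol rule leaves out, so that this gene is given beside the 9 members. Its channel is the main sodium channel of excitatory axons early in life. Scn2a1 had 19.5, 34.3, 32.8, 37.0, 39.8 and 36.0 FPKM in the control libraries of mice 1 to 6, and 30.6, 35.0, 30.0, 32.3, 33.9 and 39.8 FPKM in their cocktail libraries. Its control value in mouse 1 again stood below all others. The log2 fold change was 0.04 (95% interval -0.16 to 0.25, limma adjusted p = 0.95) and -0.07 (-0.20 to 0.05) without mouse 1. Counted with Scn2a1, the Nav alpha transcripts summed to 101.9 ± 16.1 FPKM in control and 101.6 ± 8.09 FPKM in cocktail libraries (SD, n = 6 each). Scn8a made up 47.9% ± 4.6 of the control sum, Scn2a1 32.3% ± 2.6, Scn1a 15.4% ± 1.8 and Scn3a 3.35% ± 0.38, and the cocktail shares were 46.7% ± 1.9, 33.0% ± 1.1, 15.8% ± 1.1 and 3.51% ± 0.18 (SD, n = 6 each).

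These Nav alpha transcripts are close copies of each other in part of their coding sequence, so that a read of 50 bases can fit more than 1 gene. The longest coding stretch shared without a difference had 188 bases for Scn1a and Scn2a1, 184 bases for Scn3a and Scn9a, 143 bases for Scn1a and Scn3a, and 37 bases for Scn1a and Scn8a. Of all windows of 50 bases in the transcript, 9.54% in Scn3a, 7.95% in Scn2a1, 5.67% in Scn1a and 5.36% in Scn9a also occurred in another channel gene. The aligner was set to at most 1 placement per read and allowed mismatches, whereas the windows were matched exactly. The levels of these 4 genes are thus uncertain at least by the reads from such windows.

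The 5 sodium channel genes Scn3a, Scn2a1, Scn1a, Scn9a and Scn7a lie on chromosome 2 between positions 65457118 and 66784910 (mm10), and their control means differed widely, with 3.45, 33.2, 15.9, 0.112 and 0.672 FPKM. Scn10a and Scn11a, on chromosome 9 at 119608456-119719032 and 119753765-119825456 on the minus strand, had control means of 0.0758 and 0.0236 FPKM. With Scn9a, these genes are best known from sensory neurons. The skeletal muscle gene Scn4a lay at 0 to 0.0385 FPKM over the 12 libraries. Scn4a, Scn9a, Scn10a and Scn11a were under the limit of 1 FPKM and were not tested. Scn7a, which encodes a sodium-gated rather than voltage-gated channel, was likewise not tested, at 0.401 to 0.994 FPKM over the 12 libraries.

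Among the sodium channel beta subunits, Scn2b, whose product is linked to the pore-forming subunit by a disulfide bond, ranged from 47.4 to 62.7 FPKM in control (median 54.3) and from 49.1 to 61.4 FPKM in cocktail libraries (median 52.4). The cocktail values of Scn2b lay within the control range, with a log2 fold change of -0.03 (95% interval -0.15 to 0.10, limma adjusted p = 0.95). Scn3b had 30.1 ± 2.47 and 30.5 ± 5.23 FPKM, and Scn4b, the subunit associated with resurgent sodium current, had 8.68 ± 1.88 and 7.98 ± 0.386 FPKM in control and cocktail (SD, n = 6 each). For Scn4b the log2 fold change was -0.08 (limma adjusted p = 0.89). Without mouse 3, whose control library held the lowest Scn4b value (5.62 FPKM), it was -0.19 (95% interval -0.35 to -0.04, limma adjusted p = 0.518). Within each control library the order Scn2b, Scn3b and Scn4b was the same. Scn2b and Scn4b are neighbours on chromosome 9 (45117876-45130070 on the plus strand and 45139042-45154061 on the plus strand), with control means of 54.2 and 8.68 FPKM.

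The L-type genes of the Cav1 class were among the lower channel transcripts. Cacna1c, the main L-type channel of forebrain neurons, ranged from 7.79 to 11.1 FPKM in control (median 9.29) and from 8.13 to 10.1 FPKM in cocktail libraries (median 9.10). Its cocktail values lay inside the control range, with a log2 fold change of -0.06 (95% interval -0.17 to 0.06, limma adjusted p = 0.868). The lower end of that range was the control library of mouse 1, and the next control value, 9.07 FPKM, lay above some cocktail values. The log2 fold change was -0.08 (-0.19 to 0.03) without mouse 1. In voom on recovered reads it was -0.12 (-0.20 to -0.03, adjusted p = 0.281). Cacna1d, which opens at more negative voltages, ranged from 7.24 to 8.51 FPKM in control (median 7.70) and from 7.08 to 8.81 FPKM in cocktail libraries (median 7.72). The groups of Cacna1d overlapped almost fully, with a log2 fold change of -0.01 (95% interval -0.12 to 0.11, limma adjusted p = 0.991). Cacna1s and Cacna1f, known from skeletal muscle and retina, reached at most 0.19 and 0.0841 FPKM in any library.

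Of the Cav2 class, Cacna1a (P/Q-type, the main calcium source for release at many central synapses) ranged from 37.9 to 46.2 FPKM in control (median 42.1) and from 34.9 to 44.0 FPKM in cocktail libraries (median 42.1). The cocktail value was lower than the control value in 5 of 6 mice, and the log2 fold change was -0.05 (95% interval -0.15 to 0.05, limma adjusted p = 0.866). The Cacna1a estimate carried the status FAIL in 4 of the 6 control libraries, those of mice 2, 4, 5 and 6, so no interval was available for these values. They were used as listed, so the results for Cacna1a and the Cav2 sums rest on them. The alternatives that needed status OK or recovered reads left Cacna1a out and do not check it. Cacna1b (N-type) ranged from 18.9 to 22.0 FPKM in control (median 20.2) and from 17.3 to 21.5 FPKM in cocktail libraries (median 20.4), with overlapping groups and a log2 fold change of -0.03 (95% interval -0.14 to 0.08, limma adjusted p = 0.934). Cacna1e (R-type) had 16.1 ± 3.06 FPKM in control and 17.4 ± 2.00 FPKM in cocktail libraries (SD, n = 6 each). Its log2 fold change was 0.12, and it was 0.04 without mouse 1, whose control library held the lowest level (10.5 FPKM), and 0.18 without mouse 5 (95% interval 0.00 to 0.36, limma adjusted p = 0.575).

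The T-type genes of the Cav3 class held the member with the smallest p. Cacna1i, whose channel inactivates slowly and is found mainly in brain, had 22.9, 23.3, 22.0, 24.2, 22.6 and 26.3 FPKM in the control libraries of mice 1 to 6 and 19.7, 21.9, 23.2, 21.3, 18.8 and 22.3 FPKM in their cocktail libraries. The cocktail value was the lower one in 5 of 6 mice, with mouse 3 as the exception, and the groups overlapped. The log2 fold change was -0.15 ± 0.05 (SE), with a 95% interval of -0.26 to -0.03. It did not pass the threshold in limma (adjusted p = 0.391). Flipping the signs of the 6 within-mouse differences in all ways (exact permutation test, two-sided) gave p = 0.0625, where the smallest p that 6 mice allow is 0.03125.

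Cacna1g, the T-type gene best known from thalamic burst firing, ranged from 18.4 to 21.2 FPKM in control (median 19.4) and from 16.1 to 20.7 FPKM in cocktail libraries (median 18.5). Its cocktail value was lower in 5 of 6 mice, and the log2 fold change was -0.09 (95% interval -0.20 to 0.02, limma adjusted p = 0.722). It was -0.06 without mouse 1, whose difference was the lowest of the 6 mice (-0.22). The Cacna1g estimate carried the status FAIL in the cocktail library of mouse 4, and this value was also used as listed. Cacna1h, known from sensory neurons and hippocampus, had 8.59 ± 1.21 FPKM in control and 8.27 ± 1.48 FPKM in cocktail libraries (SD, n = 6 each). The 3 T-type genes together summed to 51.8 ± 1.79 FPKM in control and 47.9 ± 4.07 FPKM in cocktail libraries, and the cocktail sum was higher in 1 of 6 mice. Of all Cav alpha1 transcripts, the Cav2 class made up 53.0% ± 1.9 in control and 54.5% ± 0.86 in cocktail libraries, the Cav3 class 35.1% ± 2.2 and 33.6% ± 1.3, and the Cav1 class 11.9% ± 0.75 and 12% ± 0.57 (SD, n = 6 each).

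**Figure D2:**
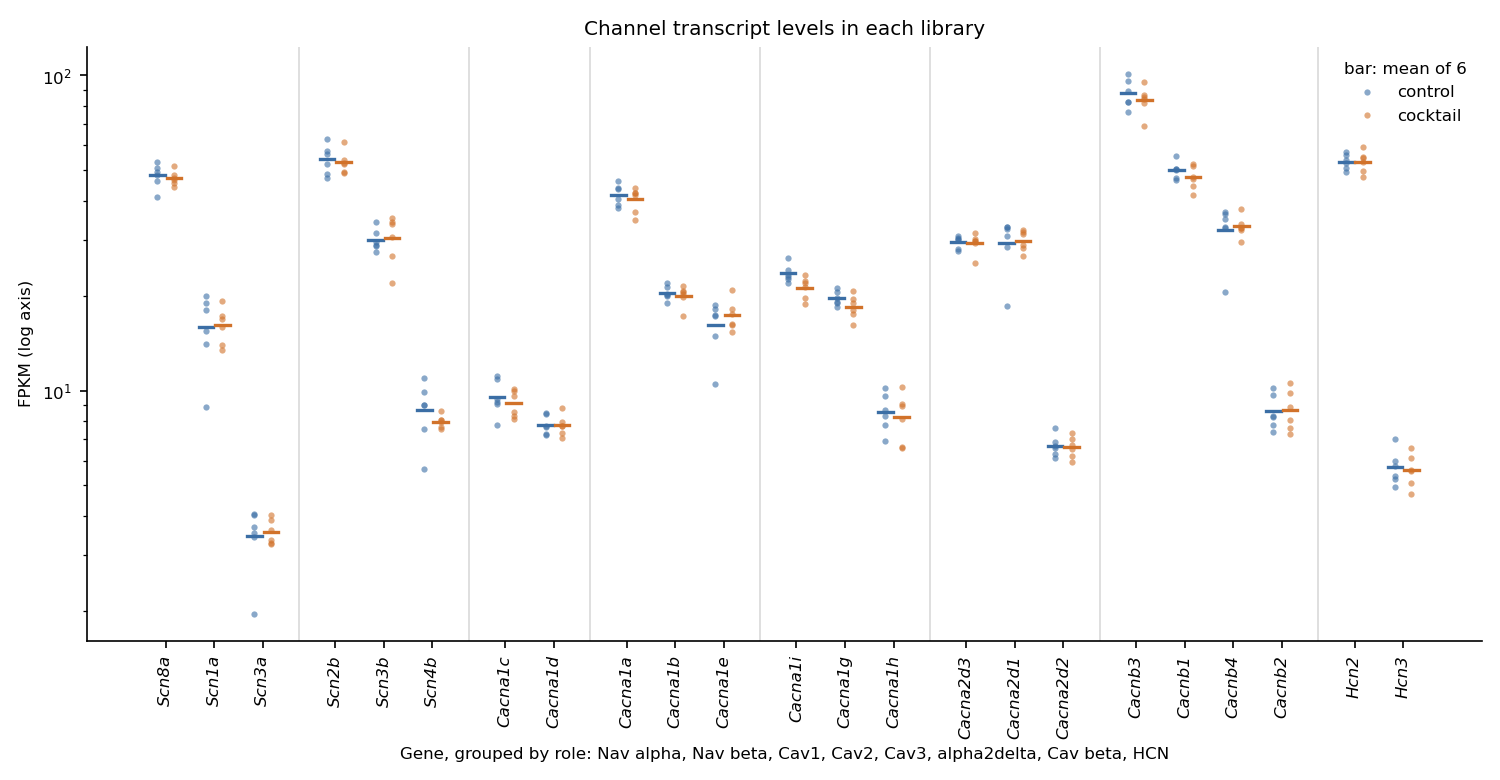
FPKM of 23 of the 25 channel genes tested (y axis, log scale) in each of the 6 control (blue) and 6 cocktail libraries (orange), with a bar at the mean of each group. Genes are grouped by role and ordered by their control mean, and every pair of groups overlaps. The single low control points of Scn1a, Scn3a, Cacna1e, Cacna2d1 and Cacnb4 are all the library of mouse 1.

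Among the alpha2delta subunits, which raise the number of calcium channels at the membrane and include the target of gabapentin (Cacna2d1), a pair of genes shared the highest level. Cacna2d3 ranged from 27.7 to 31.0 FPKM in control (median 30.1) and from 25.5 to 31.6 FPKM in cocktail libraries (median 29.9). Only 1 cocktail library, that of mouse 5, lay below the control range, and the log2 fold change was -0.01 (95% interval -0.13 to 0.11, limma adjusted p = 0.982). Cacna2d1 ranged from 18.6 to 33.1 FPKM in control (median 31.8) and from 26.7 to 32.4 FPKM in cocktail libraries (median 30.1). Its lowest value was again the control library of mouse 1, with the next lowest control value at 28.5 FPKM. The log2 fold change of Cacna2d1 was 0.04 (95% interval -0.16 to 0.24, limma adjusted p = 0.949), and -0.07 (-0.19 to 0.04) without mouse 1. Cacna2d2 had 6.69 ± 0.526 and 6.62 ± 0.521 FPKM in control and cocktail (SD, n = 6 each), whereas Cacna2d4, known from the retina, lay between 0.198 and 0.417 FPKM over the 12 libraries and was not tested.

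The intracellular Cav beta subunits, which chaperone the pore-forming subunit and shape its gating, had a control sum of 179.0 ± 10.2 FPKM (SD, n = 6). Cacnb3 ranged from 76.5 to 101.1 FPKM in control (median 85.9) and from 69.3 to 95.5 FPKM in cocktail libraries (median 84.6). The groups of Cacnb3 overlapped, with a log2 fold change of -0.07 (95% interval -0.18 to 0.04, limma adjusted p = 0.821). Cacnb1 ranged from 46.5 to 55.4 FPKM in control (median 50.4) and from 41.8 to 52.5 FPKM in cocktail libraries (median 47.4), with overlapping groups and a log2 fold change of -0.08 (95% interval -0.18 to 0.03, limma adjusted p = 0.783). In Cacnb3 and Cacnb1, mouse 1 had the lowest difference of the 6 mice (-0.24 and -0.21). Without mouse 1 their log2 fold changes were -0.035 and -0.048. Cacnb4, the beta subunit mutated in the epileptic lethargic mouse, had 20.5, 37.0, 33.1, 36.3, 35.0 and 32.7 FPKM in the control libraries of mice 1 to 6 and 32.9, 37.7, 29.6, 32.4, 32.7 and 33.8 FPKM in their cocktail libraries. Apart from the low control value of mouse 1, its values in both groups lay within 29.6 to 37.7 FPKM. The log2 fold change of Cacnb4 was 0.05 (95% interval -0.15 to 0.26, limma adjusted p = 0.932), and -0.07 (-0.16 to 0.03) without mouse 1. Cacnb2 had 8.59 ± 1.09 FPKM in control and 8.71 ± 1.3 FPKM in cocktail libraries (SD, n = 6 each).

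The HCN genes differed from each other in level far more than between the groups. Hcn2, which gives the HCN current of intermediate speed, had 52.6, 50.9, 49.5, 57.0, 54.1 and 55.8 FPKM in the control libraries of mice 1 to 6 and 49.9, 47.6, 53.1, 54.6, 55.3 and 59.1 FPKM in their cocktail libraries. The cocktail value was higher in 3 mice and lower in 3 mice. Its log2 fold change was -0.00 (95% interval -0.10 to 0.10, limma adjusted p = 0.992).

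Hcn3 had 7.00, 5.35, 5.23, 5.76, 4.93 and 6.00 FPKM in the control and 4.69, 5.09, 6.12, 5.55, 5.60 and 6.56 FPKM in the cocktail libraries of mice 1 to 6. Here mouse 1 went the other way, with the highest control and the lowest cocktail value, and the log2 fold change was -0.02 (95% interval -0.20 to 0.16, limma adjusted p = 0.973). Without mouse 1 it was 0.07 (limma adjusted p = 0.77). Of the bases in Hcn3 exons, 17.12% overlap exons of a gene on the opposite strand, and in Cacnb4 exons 15.99% do. The reads were strand-specific. Hcn4, the slow form of cardiac pacemaker cells and thalamus, lay between 0.505 and 1.09 FPKM in control (median 0.834) and between 0.519 and 0.764 FPKM in cocktail libraries (median 0.602), from 23 to 61 reads per library. Hcn4 was under the limit of 1 FPKM and was not tested. Without that limit its log2 fold change was -0.16 (95% interval -0.29 to -0.03, limma unadjusted p = 0.0208, adjusted p = 0.456). The cocktail library held the lower value in 4 of 6 mice. At such levels the log2(FPKM + 1) scale understates the size of a change. Hcn2 made up 74.2% ± 1.4 of the HCN transcripts in control and 74.2% ± 1.2 in cocktail libraries, Hcn3 7.96% ± 1.1 and 7.79% ± 0.53, and Hcn4 1.14% ± 0.25 and 0.869% ± 0.15 (SD, n = 6 each).

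The coding sequence around the pore filter, the narrowest part of the channel, is shown for Hcn2, Hcn3 and Hcn4 to compare how far their transcripts can be told apart, with the codons of the filter in capitals.
Hcn2: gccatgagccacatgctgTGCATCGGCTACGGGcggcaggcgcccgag
Hcn3: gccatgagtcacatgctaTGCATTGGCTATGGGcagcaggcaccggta
Hcn4: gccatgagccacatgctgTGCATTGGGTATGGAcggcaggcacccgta
The stretches lie within 1 exon each, in GRCm38 at chr10:79728935-79728982 on the plus strand (Hcn2), chr3:89150991-89151038 on the minus strand (Hcn3) and chr9:58855567-58855614 on the plus strand (Hcn4). Pairs of them had 39 to 42 of 48 bases in common (81.2% for Hcn2 and Hcn3, 87.5% for Hcn3 and Hcn4). No window of 50 bases in these 3 transcripts occurred without a difference in another channel gene (0.00% in each), unlike in Scn1a and Scn2a1. The aligner allowed mismatches, so this search for exact copies cannot tell whether some reads fit more than 1 of these genes.

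Within the roles, the order of the control levels was the same in all libraries for nearly all neighbours. FPKM is a level per transcript length, so genes can be set side by side. Of 17 pairs of neighbours, 16 had the same order in all 6 control libraries, each with p = 0.03125 in the exact two-sided sign-flip permutation test, the smallest p that 6 libraries allow, and 0.0332 after adjustment over the 17 pairs. The order was set by the means of the same 6 libraries, so this test only describes how steady the order was across them. Scn2a1 was not placed in the order, although its control mean lay between those of Scn8a and Scn1a. The steps ranged from 1.2-fold (Cacna1i over Cacna1g) and 1.22-fold (Cacna1c over Cacna1d) to 4.58-fold (Scn1a over Scn3a). Cacna2d3 and Cacna2d1 did not differ beyond their spread, with Cacna2d3 higher in 2 of 6 control libraries (exact p = 0.9375), and Cacna2d1 had the higher mean without mouse 1 or without mouse 3.

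The difference between the hemispheres of mouse 1 went with the GC content of the transcripts. The GC content of the transcripts reached from 39.3% in Cacnb4 to 65.4% in Hcn2 among the genes named here. In mouse 1, the difference between cocktail and control on the log2(FPKM + 1) scale was 0.66 for Cacnb4 (39.3% GC), 0.61 for Cacna2d1 (44.5%), 0.60 for Scn1a (43.2%), 0.53 for Scn3a (43.2%) and 0.51 for Cacna1e (48.3%). These were the highest 5 differences of mouse 1 among the channel genes. In the other 5 mice the differences of these 5 genes lay between -0.30 and 0.26.

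The 10 channel genes with under 50% GC had a median difference of 0.40 in mouse 1, and the 15 others a median of -0.07. In mice 2 to 6 these medians lay between -0.21 and 0.09 and between -0.16 and 0.03. Across the 25 genes, the deviation of the control library of mouse 1 from the mean of each gene had a Pearson r of 0.758 with GC content, and the other 11 libraries had r between -0.493 and 0.305. These correlations are across genes of 1 library, which share its depth and preparation, and genes are not independent replicates. Each library was also corrected for its trend on GC content and transcript length, an alternative chosen after seeing the data. The SE of Cacnb4 then went from 0.09 to 0.05 and its log2 fold change from 0.05 to 0.03 (limma adjusted p = 0.905). Those of Scn1a went from 0.09 to 0.05 and from 0.05 to 0.03 (limma adjusted p = 0.90). For Cacna1e the SE went from 0.082 to 0.056, but the log2 fold change only from 0.116 to 0.107 (limma adjusted p = 0.539). Again 0 channel genes were called.

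**Figure D3:**
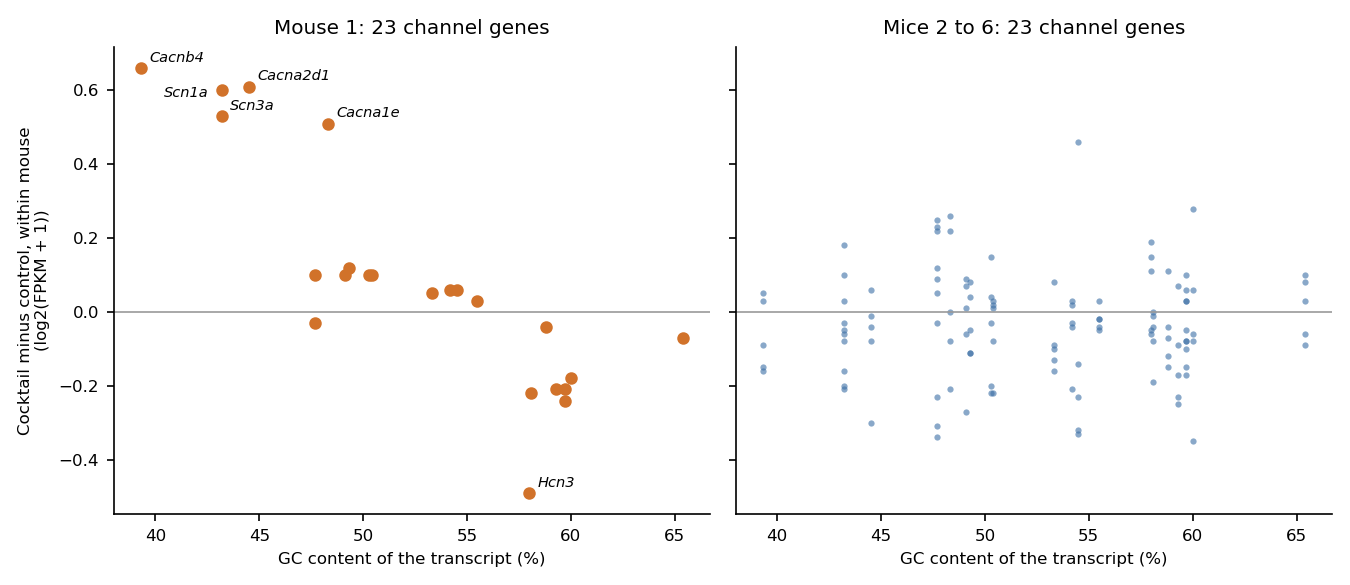
Difference between the cocktail and the control library of the same mouse on the log2(FPKM + 1) scale (y axis) against the GC content of the transcript in percent (x axis), for 23 of the 25 channel genes in mouse 1 (left) and in mice 2 to 6 (right, 5 points a gene). In mouse 1 Cacnb4 lay highest at 0.66 and Hcn3 lowest at -0.49, whereas the points of the other mice scatter around 0 over the whole range.

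The direction of the differences varied by mouse. The cocktail value was higher for 15, 13, 14, 4, 3 and 13 of the 25 channel genes in mice 1 to 6, and the same held for 64.9%, 50.3%, 58.2%, 42.6%, 37.6% and 43.4% of all loci tested. Mice 4 and 5 thus had the fewest channel genes with a higher cocktail value, and mouse 5 had the fewest loci of any kind. The median difference of the channel genes in mouse 5 was -0.20, beside -0.05 over all loci tested.

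Proteins that bind these channels or shape their function were read out from 4 lists. Of 15 loci of sodium channel partners tested (Fgf11 to Fgf14, ankyrins, spectrin, calmodulins, neurofascin and others, with Scn2a1), 0 were called by limma and 0 had an unadjusted p under 0.05, with log2 fold changes between -0.03 and 0.09. Likewise 0 of 3 HCN partner loci and 0 of 4 loci of the sodium leak channel complex were called, and 0 of them had an unadjusted p under 0.05. Of 21 loci of calcium channel partners tested, 2 were called, both higher in the cocktail libraries (1.22% of all loci tested were called higher), and 0 were called lower. The rest of that list includes the Cacng genes, the Rims genes, Camk2a, Camk2b and the calcineurin subunits Ppp3ca and Ppp3cb, none of which was called. The 4 lists were chosen with earlier results of these data known, so their counts are no independent test.

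The pair that was called belongs to the RGK family of small GTPases, Rad, Gem and Rem proteins, which bind Cav beta subunits and are known to inhibit calcium channel currents. Rem2 had 5.98, 4.91, 3.82, 5.10, 5.03 and 3.42 FPKM in the control libraries of mice 1 to 6 and 7.05, 8.26, 7.51, 7.58, 5.89 and 4.78 FPKM in their cocktail libraries. Each mouse had the higher value in the cocktail hemisphere, although the groups overlapped. Rem2 rose with a log2 fold change of 0.46 ± 0.08 (SE, 95% interval 0.28 to 0.64, limma adjusted p = 0.0142), and the exact sign-flip permutation test gave p = 0.03125, the smallest that 6 mice allow. The call was lost without mouse 2, 3 or 4 (adjusted p = 0.0766, 0.0529 and 0.0649), without the filter on low values (0.0837), without the mouse block (0.146) and in voom on recovered reads (0.0755), with the log2 fold change between 0.39 and 0.53 over all alternatives.

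Gem had 8.95, 10.4, 11.1, 13.5, 13.4 and 12.7 FPKM in the control and 16.1, 18.4, 17.8, 18.4, 17.4 and 11.9 FPKM in the cocktail libraries of mice 1 to 6. Mice 1 to 5 were higher in the cocktail hemisphere and mouse 6 was slightly lower, so that the groups overlapped by that library alone. Gem rose with a log2 fold change of 0.48 ± 0.10 (SE, 95% interval 0.26 to 0.69, limma adjusted p = 0.0346; exact sign-flip permutation p = 0.0625). The call was lost without any one of mice 1 to 5 (limma adjusted p from 0.0644 to 0.154). It was also lost without the filter (0.155) and without the mouse block (0.0591). Over all alternatives the log2 fold change ran from 0.42 without mouse 1 to 0.59 without mouse 6 (limma adjusted p = 0.00165). With the GC and length correction it was 0.43 (limma adjusted p = 0.029). Rrad, the third member tested, had 1.65 and 2.21 FPKM as group means, with a log2 fold change of 0.28 (95% interval 0.08 to 0.47) that did not pass the threshold (limma adjusted p = 0.299), and Rem1 was under 1 FPKM and was not tested. In the same mice the beta subunits to which these GTPases bind had log2 fold changes between -0.08 and 0.05, none of them called.

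**Figure D4:**
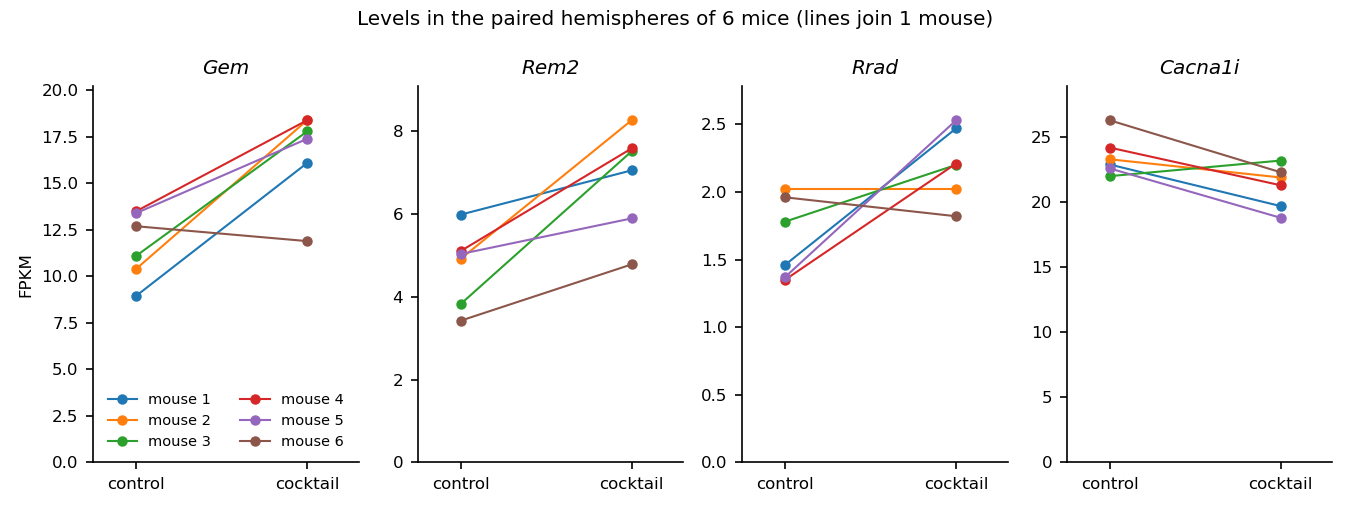
FPKM (y axis, from 0) of Gem, Rem2, Rrad and Cacna1i in the control and the cocktail hemisphere of each of 6 mice, joined by a line and coloured by mouse. Rem2 was higher with the cocktail in 6 of 6 mice, Gem in 5 of 6 and Cacna1i in 1 of 6.

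Of the 35 genes, 25 had an entry in the RefSeq promoter table (GRCm38.p6), with 34 promoters in all. In the 250 bases before the start, both strands were searched for the full cAMP response element (TGACGTCA), to which CREB binds, for its half-site (TGACG), which the full element contains, and for the AP-1 site (TGANTCA), to which Fos and Jun bind. The full element was in 0 of the 34 promoters and in 1.55% of all 32851 promoters of the table, and the AP-1 site was in 0 and in 6.75%. The half-site was in 6 of the 34 promoters, those of Cacna1b, Cacna1c, Cacna1i, Cacna2d1, Cacnb2 and Scn10a, and in 17.8% of all promoters.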

How the data were processed

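Poly-A RNA of 12 libraries was sequenced as single strand-specific reads of 50 bases in 1 lane. Before deposit, the authors screened out ribosomal RNA with BWA 0.6.1, aligned the rest to mm10 with TopHat 1.4.1 (at most 1 placement per read) and estimated FPKM with bias correction in Cufflinks 1.3.0. FPKM values were deposited per locus, each with a confidence interval and a status. A deposited table of the authors' own DESeq2 1.6.3 comparison on HTSeq 0.6.1p1 counts (mean counts, fold changes, p-values) was not used.

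Reads were recovered here from the FPKM intervals at loci with status OK. Of 36158 values under 20 reads, 83.2% were whole to within 0.05. Such intervals cover counting error only. Loci averaging 1 FPKM or more entered the test as log2(FPKM + 1), a scale that understates changes of low genes, with limma 3.58.1 (R 4.3.3), a variance trend, the mouse as a block, and adjustment by Benjamini and Hochberg at 0.05. The test was also run on simulated data with noise drawn separately for each locus. These data held no trend on GC content like that of the control library of mouse 1. The block follows the labels, which give 1 mouse for each pair of hemispheres. Deviations of the same mouse from the group mean correlated at 0.216 to 0.406 in all 6 pairs (median 0.337). In 30 pairs of different mice they correlated at -0.420 to 0.445 (median -0.071). Taking deviations from the group mean itself presses the latter below 0 where the former are above 0, so they are no independent baseline. For single genes, the signs of the within-mouse differences were flipped in all ways (exact permutation test, two-sided). GENCODE M21 (GRCm38) gave the sequences, GC content and exon overlaps. Figures were drawn with matplotlib 3.10.9.

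Values are given per group for the 2 highest members of each role, members with p under 0.05 and all HCN genes, and others as means or ranges. Some members, sequences and their values are not reported here, though counts and sums over the members include them. The members, the lists of partners and markers, and the tests were chosen with earlier results of these data known. The alternatives were another scaling, quantile normalization, pseudocount and filters, no block, no variance trend, array weights, voom, each mouse left out, and a GC and length correction.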

Additional observations from a re-analysis of the deposited data

Results flagged for a closer look

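In 9 of 87 groups of 6 values (control FPKM, cocktail FPKM and within-mouse log2 differences of the 25 channel genes tested and of Scn2a1, Gem, Rem2 and Rrad), 1 value lay far from the other 5, measured as its gap to the nearest value over the whole range. Chance alone flags about 1 group in 20, which is 4.4 of 87. In 7 of the 9 the value was the control library of mouse 1 or the difference of mouse 1. The control FPKM of mouse 1 was the lowest for Scn3a (1.96 against 3.43 to 4.07, gap over range 0.696), Cacnb4 (20.5 against 32.7 to 37.0, 0.738), Cacna2d1 (18.6 against 28.5 to 33.1, 0.687) and Scn2a1 (19.5 against 32.8 to 39.8, 0.654). The difference of mouse 1 was the highest for Scn1a (0.60 against -0.20 to 0.10, 0.631) and Cacnb4 (0.66 against -0.16 to 0.05, 0.749) and the lowest for Hcn3 (-0.49 against -0.06 to 0.19, 0.631). Cacna1b had its lowest difference in mouse 5 (-0.21 against -0.04 to 0.06, 0.629). Gem had its lowest cocktail value in mouse 6 (11.9 FPKM against 16.1 to 18.4, 0.639).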

How the results depend on the processing

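The count of channel genes called stayed at 0 under all 17 alternatives, and their median log2 fold change lay between -0.057 (voom) and -0.013 except without mouse 5, where it was 0.007. Without each mouse in turn it ran from -0.038 to 0.007. Of 420 single values of the 25 genes under alternatives, 419 stayed within 1 SD of the within-mouse differences. That count is no measure of stability, because leaving out 1 of 6 mice cannot shift a mean by 1 SD. Fits that changed only the filter, the block or the variance trend also kept the estimate. Under the alternatives, 41 values of 16 genes changed sign, none of them called. Cacna1i stayed below 0 under all 17 alternatives (-0.20 to -0.11), with an unadjusted p over 0.05 without mouse 5 or mouse 6. Without the replicate block the loci called fell to 88 (from 180), with the channel genes still at 0 called. Leaving out each mouse gave 104 to 181 loci called, the fewest without mouse 4. The cause of these shifts was not tested. The control order kept 14 of 17 pairs with recovered reads scaled to depth in place of FPKM, which are not per length, where Cacna1b and Cacna1e, Cacna2d3 and Cacna2d1, and Cacnb1 and Cacnb4 changed places, and 16 or 17 pairs otherwise. The 10 genes under 1 FPKM ranged from Scn11a, with 0 to 4 reads per library, to Scn7a, with 53 to 86. Rrad, which was tested, had 30 to 69. Differences in the genes with the fewest reads were hardly detectable at this depth.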
